A study of Mus musculus with 12 samples.

Results

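CD8 T cells of the islets that bound the IGRP tetramer and carried TRAV16N joined to TRAJ42 with TRBV13-3 were compared by their β-chain J gene, TRBJ2-4 against TRBJ2-7. IGRP is a protein of the pancreatic β cell, and the tetramer held the mimotope peptide NRP-V7 in the MHC class I molecule Kd. Cells were used if they met the limits on genes and mitochondrial UMIs and had exactly 1 α and 1 β contig, which gave 1215 of the 24117 cells that met those limits in 6 libraries. TRBJ2-4 was carried by 346 of these cells in Round 1 and 466 in Round 2, and TRBJ2-7 by 90 and 313. Cells with identical α-chain and β-chain CDR3 nucleotides were counted as 1 clone, and all tests compared clones rather than cells. The mice were untreated NOD/ShiLtJ animals of 10 to 15 wk, and the study sorted CD45.1+ Lin- CD8+ tetramer-positive cells of islets and spleen and tetramer-negative cells of islets. Each round was 1 pool of 10 mice, and the mouse behind a given cell is unknown. The p-values therefore measure the spread between clones of these pools, and 2 mice that made the same pair of sequences would count as 1 clone.

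The complementarity-determining region CDR3 is the part of a T cell receptor that lies over the peptide. In the β chain it is built when a V, a D and a J gene are joined, with bases trimmed from their ends and untemplated bases added. In the α chain, V and J genes are joined without a D gene. NOD mice develop autoimmune diabetes, and CD8 T cells that recognise IGRP are among the cells that enter their islets.

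The J gene sets the end of the β-chain CDR3, so the germline parts are shown first. They were read from the GENCODE M21 transcripts on GRCm38, each on the plus strand, from the V gene's last cysteine codon onward or up to the J gene's phenylalanine codon. Trbv13-3 lies at chr6:41130147-41130585, Trbd1 at chr6:41533201-41533212, Trbd2 at chr6:41542163-41542176, Trbj2-4 at chr6:41543362-41543410 and Trbj2-7 at chr6:41543810-41543856. All are coding segments of the β-chain locus.
Trbv13-3: tgtgccagcagtgatg
Trbd1: gggacagggggc
Trbd2: gggactgggggggc
Trbj2-4: agtcaaaacaccttgtacttt
Trbj2-7: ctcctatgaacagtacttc
The Trbj2-4 part held 21 bases and the Trbj2-7 part 19.

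The junctions of the TRBJ2-4 clones repeated a few proteins, and those of the TRBJ2-7 clones rarely did. TRBJ2-4 was found in 21 islet clones with 16 β-chain nucleotide sequences that encoded 8 β-chain CDR3 proteins. TRBJ2-7 was found in 22 islet clones with 21 nucleotide sequences that encoded 20 proteins. One TRBJ2-4 receptor, meaning an α protein with its β protein, was encoded by 8 clones with 4 β-chain sequences and 3 α-chain sequences. The 4 β-chain sequences are shown because they reach the same 12 residues by different junctions. Capitals mark bases outside the unbroken match to the germline V gene from the left and to the germline J gene from the right. A base past the first mismatch is a capital even where it equals the germline base.
TRBJ2-4 clones 2, 6 and 13: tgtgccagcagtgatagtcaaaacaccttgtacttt
TRBJ2-4 clones 3, 4 and 14: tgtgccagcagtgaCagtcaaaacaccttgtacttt
TRBJ2-4 clone 5: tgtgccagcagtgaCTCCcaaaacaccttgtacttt
TRBJ2-4 clone 20: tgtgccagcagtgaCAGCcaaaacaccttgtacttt
The first of these, carried by 228 islet cells of 3 clones, held no base outside the V and the J match. These 8 clones held 294 of the 346 TRBJ2-4 cells of Round 1 (85.0%), in 5 clones of 6 to 116 cells. In Round 2 they held 199 of 466 cells (42.7%), in 7 clones of 1 to 82 cells. The receptor was thus present in both pools of mice as several clones. Some of these lay 1 base from a larger clone of the same library, over both CDR3 sequences together. They were clones 4 and 13 in Round 1 and clones 2, 3, 13, 14 and 20 in Round 2. Whether any of them is a sequencing error of its neighbour was not tested, so the number of clones of this receptor is uncertain.

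The largest TRBJ2-4 clone of all was another receptor, carried by 205 cells of Round 2 (44.0% of its J gene) and by 0 islet cells of Round 1. Another receptor was encoded by 6 clones and 74 cells with 5 β-chain sequences. Their β chains are shown beside that of the largest clone, with capitals as before.
TRBJ2-4 clone 1: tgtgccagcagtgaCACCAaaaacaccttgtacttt
TRBJ2-4 clones 7 and 10: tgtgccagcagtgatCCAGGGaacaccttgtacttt
TRBJ2-4 clone 9: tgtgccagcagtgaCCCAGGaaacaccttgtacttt
TRBJ2-4 clone 12: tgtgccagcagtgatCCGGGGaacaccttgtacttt
TRBJ2-4 clone 18: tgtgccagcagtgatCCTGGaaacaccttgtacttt
TRBJ2-4 clone 19: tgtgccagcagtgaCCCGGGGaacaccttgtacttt
Clones that shared a receptor protein with another clone held 567 of 812 TRBJ2-4 cells (69.8%) and 84 of 403 TRBJ2-7 cells (20.8%).

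Among the TRBJ2-7 clones, 1 receptor was encoded by more than 1 clone. Clones 1 and 6 shared the same β-chain sequence and differed in their α-chain sequence, and they held 62 and 22 cells of Round 2. The β chains of the 4 largest TRBJ2-7 clones, and of clone 9, the TRBJ2-7 clone present in the islets of both rounds, are shown for comparison.
TRBJ2-7 clones 1 and 6: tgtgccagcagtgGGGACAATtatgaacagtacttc
TRBJ2-7 clone 2: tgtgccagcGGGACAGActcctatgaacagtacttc
TRBJ2-7 clone 3: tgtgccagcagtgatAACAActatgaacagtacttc
TRBJ2-7 clone 4: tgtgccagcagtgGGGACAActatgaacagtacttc
TRBJ2-7 clone 9: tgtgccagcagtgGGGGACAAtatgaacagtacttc
The capitals of clones 1, 2, 4 and 6 begin with the same 6 letters as Trbd1.

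The number of bases between the V and the J match ranged from 0 to 10 in the TRBJ2-4 clones, with a median of 5. In the TRBJ2-7 clones it ranged from 3 to 14, with a median of 8, so the ranges overlapped. At most 2 such bases were found in 6 TRBJ2-4 clones and in 0 TRBJ2-7 clones. The germline V part of 16 bases and the 21 bases of Trbj2-4 can fill a CDR3 of 36 bases. With the 19 bases of Trbj2-7 they cannot, so a TRBJ2-7 clone of that length could not have 0 bases between. The part of germline J length in these counts was not tested. A run of at least 5 bases of Trbd1 or Trbd2 was found between the matches in 4 TRBJ2-4 clones with 62 cells, at most 7 bases long. It was found in 11 TRBJ2-7 clones with 271 cells, at most 12 bases long. The β-chain CDR3 was 36 bases long in 20 of 21 TRBJ2-4 clones and in 16 of 22 TRBJ2-7 clones, and the longest were 39 and 45 bases. These counts describe the clones recovered and carry no test, because clones of 1 receptor are not independent of one another.

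**Figure D1:**
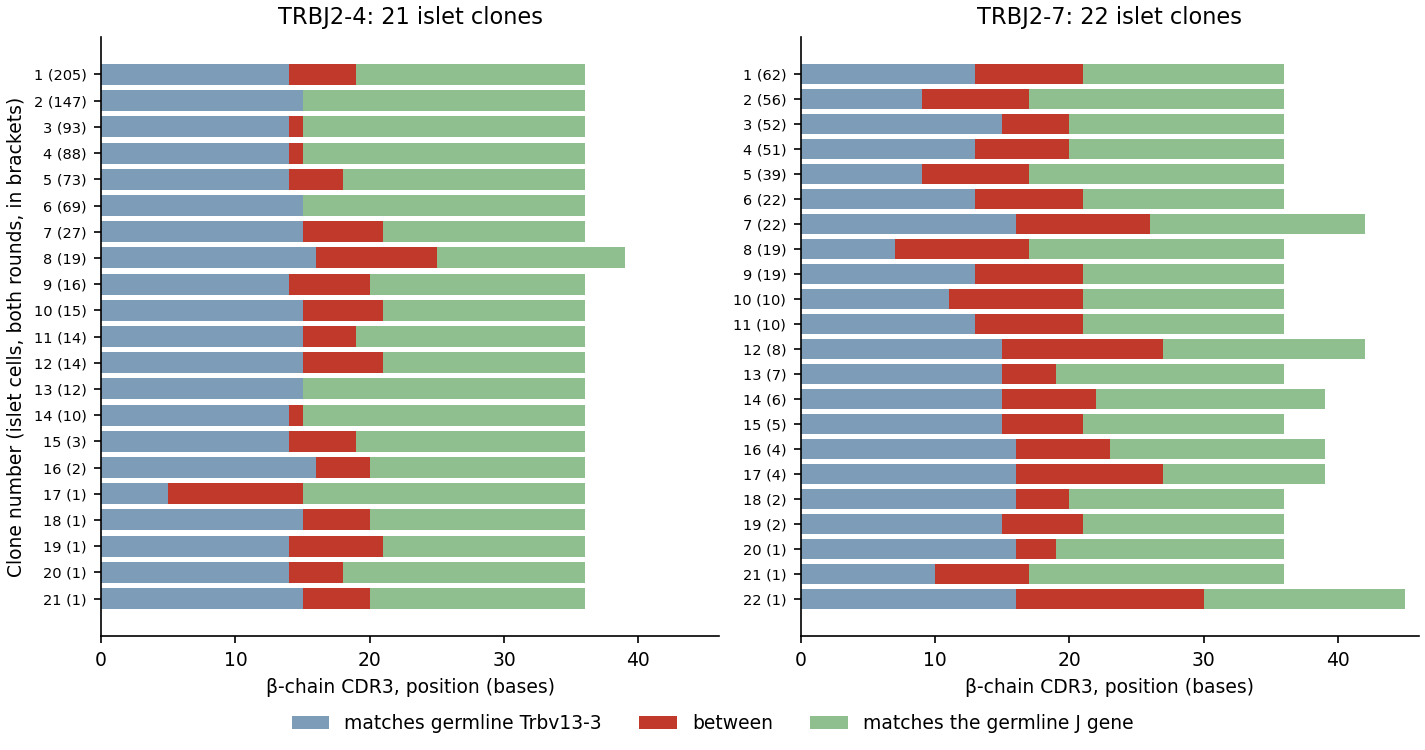
Each bar is the β-chain CDR3 of 1 islet clone along its length in bases, with TRBJ2-4 clones on the left and TRBJ2-7 clones on the right, and with the number of islet cells in brackets. Blue marks the bases that match the germline Trbv13-3, green those that match the J gene and red those between. The red part is absent in 3 TRBJ2-4 clones and is between 3 and 14 bases long in every TRBJ2-7 clone. In TRBJ2-7 clones it could not be absent, because their germline V and J parts together are shorter than every CDR3 found.

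The α chains were largely common to both J genes. The TRBJ2-4 clones used 5 α-chain nucleotide sequences that encoded 3 proteins, and the TRBJ2-7 clones used 9 that encoded 5. Of these, 4 nucleotide sequences and 3 proteins occurred with both J genes. Of the 4 shared sequences, 3 are shown because the same letters were paired with either J gene. Each is listed with some of the clones that carried it. Capitals again mark bases outside the unbroken matches, here to Trav16n (chr14:53351028-53351621) and Traj42 (chr14:54175773-54175836).
α chain of TRBJ2-4 clones 1, 2 and 4 and TRBJ2-7 clones 3 and 9: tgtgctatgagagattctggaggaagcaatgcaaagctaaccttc
α chain of TRBJ2-4 clones 3, 5 and 6 and TRBJ2-7 clone 1: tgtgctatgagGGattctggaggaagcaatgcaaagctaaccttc
α chain of TRBJ2-4 clones 13, 14 and 20 and TRBJ2-7 clone 2: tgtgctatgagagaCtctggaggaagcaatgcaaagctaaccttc

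In the spleens of the same mice, TRBJ2-4 cells fell into 20 clones with 16 β-chain sequences and 10 β-chain proteins, and TRBJ2-7 cells into 19 clones with 18 sequences and 16 proteins. The median number of bases between the V and the J match was 4.5 and 7. Of the islet clones, 17 TRBJ2-4 and 15 TRBJ2-7 clones were also found in a spleen library, so the tissues are not independent. Clones 2, 3, 4 and 13 of TRBJ2-4 and clone 9 of TRBJ2-7 were present in the islets of both rounds. Clones 2, 3 and 4 held 116, 90 and 6 islet cells in Round 1 and 31, 3 and 82 in Round 2, so their order turned between the pools.

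Both J genes together made up most of the tetramer-positive islet cells with these V genes and TRAJ42. They held 436 of 502 such cells in Round 1 and 779 of 1090 in Round 2. Of the islet tetramer-positive cells with exactly 1 α and 1 β contig, TRBJ2-4 cells were 51.4% (exact 95% CI 47.6–55.2) of 673 cells in Round 1 and 39.1% (36.3–42.0) of 1191 in Round 2. TRBJ2-7 cells were 13.4% (10.9–16.2) and 26.3% (23.8–28.9). The share of TRBJ2-4 was lower and that of TRBJ2-7 higher in Round 2, and the intervals, which cover counting error only, did not overlap between rounds. In tetramer-negative islet cells, taken as the background, cells with the same V genes and TRAJ42, whatever their β-chain J gene, were 0 of 2992 and 2 of 5483 paired cells. The count of 0 allows a share of up to 0.1%.

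Clone sizes differed by less than the spread between clones. In Round 1, the 12 TRBJ2-4 clones held 1 to 116 cells with a geometric mean of 9.06, and the 7 TRBJ2-7 clones held 1, 4, 5, 6, 8, 10 and 56 cells with a geometric mean of 6.59. On the log2 scale the difference was 0.46, with means of 3.18 ± 2.54 (SD, n = 12) and 2.72 ± 1.74 (SD, n = 7), and p = 0.677 in a two-sided exact permutation test. In Round 2, the geometric mean was 11.5 in 13 TRBJ2-4 clones of 1 to 205 cells and 9.68 in 16 TRBJ2-7 clones of 1 to 62 cells. That log2 difference was 0.25 (p = 0.766, two-sided permutation test with 100000 resamples). The ranges overlapped in both rounds. The largest clone held 33.5% of TRBJ2-4 cells and 62.2% of TRBJ2-7 cells in Round 1, but 44.0% and 19.8% in Round 2.

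**Figure D2:**
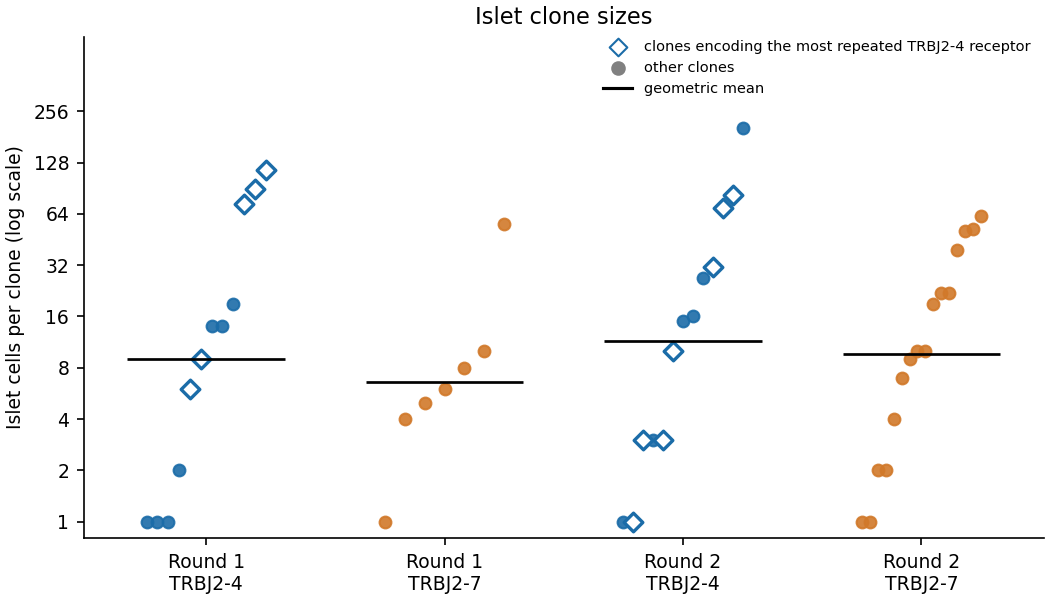
Each point is an islet clone, placed by its number of cells on a log scale and grouped by round and J gene, with bars at the geometric means. Open diamonds are the clones that encode the TRBJ2-4 receptor found in 8 clones. They include the 3 largest TRBJ2-4 clones of Round 1 and range from 1 to 82 cells in Round 2.

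The division of clones between islets and spleen did not separate the J genes either. For each clone present in the islets of a round, with at least 5 cells over islets and spleen, the islet share is the percent of those cells that came from the islets. It also depends on how many cells of each tissue were sequenced. In Round 1 it was 14.3% to 100% with a median of 20% in TRBJ2-4 clones (33.8% ± 28.4, SD, n = 11). In TRBJ2-7 clones it was 18.8% to 100% with a median of 47.7% (50.7% ± 28.0, SD, n = 6). The difference was −16.9 percentage points (two-sided exact permutation test, p = 0.262). In Round 2 the shares were 48.8% ± 20.9 (SD, n = 9) and 48.6% ± 25.8 (SD, n = 12), with p = 0.985 in the same exact test. The 4 tests of clone size and islet share were taken as 1 family, in which every adjusted p was 0.985. They treated clones as exchangeable, although several TRBJ2-4 clones encoded the same receptor and may not be independent.

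For the transcriptomes, the UMIs of each clone with at least 5 islet cells were summed. This gave 8 TRBJ2-4 and 5 TRBJ2-7 clones in Round 1, and 8 and 11 in Round 2, with 15468 to 930020 UMIs per clone. Levels are given as CPM, the gene's UMIs for every 1000000 UMIs of the clone, and a difference is always TRBJ2-4 minus TRBJ2-7 on the log2 scale. The median TRBJ2-4 and TRBJ2-7 cell held 5058 and 3387.5 UMIs in Round 1 and 4220 and 4828 in Round 2, so that depth moved with the J gene in opposite directions. The part of depth in the differences between rounds was not tested. In summed counts, less RNA per cell and fewer cells of a state cannot be told apart.

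The summed counts were those of CD8 T cells. The 8 genes of the CD8 T cell list summed to between 6404 and 7457 CPM in each round and J gene, with none at 0, and Cd4 was at 0 throughout. B-cell genes summed to between 9.94 and 31.6 CPM, and islet endocrine genes to between 2.38 and 14.0 CPM. Pancreatic acinar genes summed to 51.0 CPM for TRBJ2-4 and 52.2 CPM for TRBJ2-7 in Round 1. In Round 2 they summed to 291 and 52.4 CPM, and clone 7 of TRBJ2-4 stood at 2450 CPM, and the part of acinar RNA in the differences was not tested. The J gene could not be checked in the scRNA-seq counts, where Trbj2-4 and Trbj2-7 had at most 1 UMI per round and J gene, while Trbv13-3 stood between 1185 and 1834 CPM. In Round 1 TRBJ2-4 cells, Trav16n stood at 31.4 CPM and its near-identical copy Trav16d-dv11 at 327, against 521 and 51.7 in Round 2, so counts of these paralogs are uncertain. Barcodes of 18 of the 436 cells of Round 1 and 21 of the 779 cells of Round 2 also occurred in another library. Where a shared barcode carried one of these J genes in 2 tetramer-positive libraries, 0 were of the same clone, and barcodes shared with tetramer-negative libraries were not compared by clone.

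No gene passed the test between the J genes. With the round as a term, 0 of 1436 genes passed an adjusted p of 0.05 (0%) in edgeR's quasi-likelihood test over 16 TRBJ2-4 and 16 TRBJ2-7 clones, where a clone seen in both rounds entered as 1 unit per round. At an unadjusted p under 0.05 there were 52 genes (3.62%), 27 with the higher value in TRBJ2-4 (1.88%) and 25 in TRBJ2-7 (1.74%). DESeq2 also passed 0 genes, with 57 at an unadjusted p under 0.05. The largest difference in either direction was 0.63, and the median standard error was 0.13. For 1427 genes (99.4%), the 95% interval of the difference lay within 1 log2 unit of 0. On simulated counts with 200 genes changed at once and clones drawn independently, the same fit recovered 76% of genes changed by 0.5 log2 units. It recovered 96% of those changed by 1, and 3 unchanged genes also passed. These shares do not apply where few genes differ, and they set no bound on differences missed here. The remaining genes of the 13706 detected were too low to be tested.

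Within rounds the result was the same in number. In Round 1, 0 of 933 genes passed (0%), with 44 at an unadjusted p under 0.05 (4.72%), 23 higher in TRBJ2-4 (2.47%) and 21 in TRBJ2-7 (2.25%). DESeq2 passed 0 there, with 40 at an unadjusted p under 0.05. In Round 2, 0 of 2359 genes passed (0%), with 126 at an unadjusted p under 0.05 (5.34%), and DESeq2 passed 0, with 102. Of those 126 genes, 46 had the higher value in TRBJ2-4 (1.95% of genes tested) and 80 in TRBJ2-7 (3.39%). Across the 930 genes tested in both, the differences of Round 1 and Round 2 had the same sign for 422 (45.4%), with a Pearson r of −0.14 and a Spearman rho of −0.14 over genes, which are not independent replicates. The test of the difference between rounds passed 0 of 1436 genes (0%), with 102 at an unadjusted p under 0.05 (7.1%), 46 with a positive term (3.2%) and 56 with a negative one (3.9%). DESeq2 passed 0, with 88. In the spleen, 0 of 1000 genes passed (0%), with 38 at an unadjusted p under 0.05 (3.8%), 14 higher in TRBJ2-4 (1.4%) and 24 in TRBJ2-7 (2.4%). DESeq2 passed 0, with 33.

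**Figure D3:**
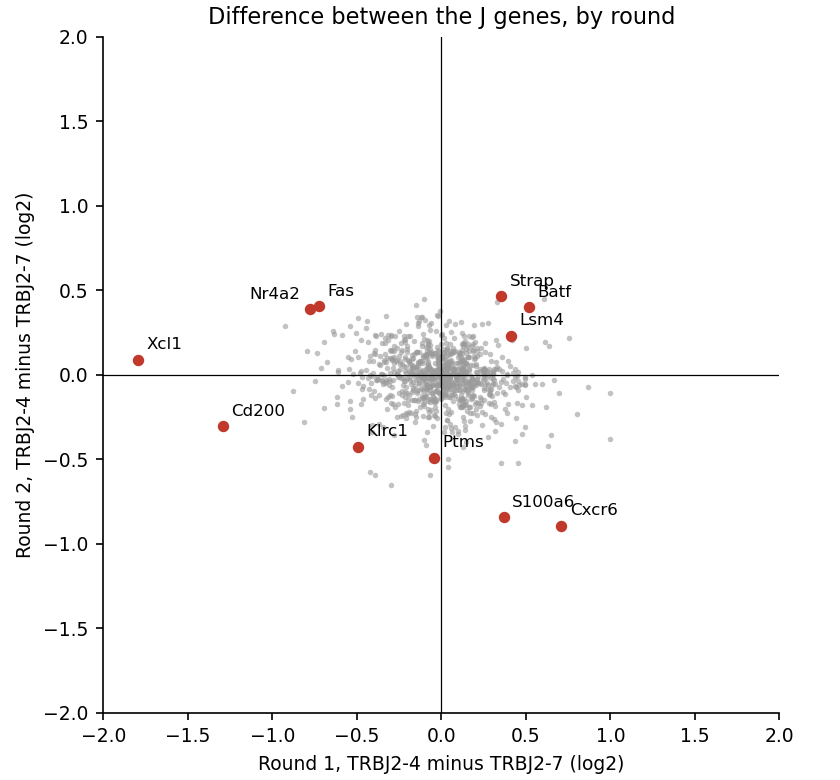
Each point is a gene tested in both rounds, placed by its log2 difference of TRBJ2-4 minus TRBJ2-7 in Round 1 and in Round 2. Labelled genes are red. The cloud of 930 genes has no rising trend, Cxcr6 and S100a6 lie above 0 in Round 1 and below it in Round 2, and Nr4a2 and Fas lie the other way.

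The genes of lowest p with the same sign in both rounds are given by their values, since none passed. In TRBJ2-4 the higher values belonged to Strap (difference 0.44), which encodes a WD-repeat protein of RNA-binding complexes, Batf (0.45), Lsm4 (0.30), a part of the spliceosome, Impdh2 (0.31), an enzyme of guanine nucleotide synthesis, and Ndufs6 (0.30), a subunit of respiratory complex I. In TRBJ2-7 they belonged to Ptms (−0.33), Klrc1 (−0.44), Cd200 (−0.59), the ligand of an inhibitory receptor, Cd37 (−0.35), a tetraspanin, and B4galnt1 (−0.32), an enzyme of ganglioside synthesis. For each of the 10 genes the adjusted p of edgeR's test was 0.998.

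Batf is a transcription factor of the AP-1 family that acts in effector T cells. In Round 1 the TRBJ2-4 clones held 167 to 402 CPM of Batf with a median of 262, and the TRBJ2-7 clones held 95.01, 109, 194, 203 and 361 CPM. In Round 2 the TRBJ2-4 clones held 188 to 459 CPM with a median of 261, and the TRBJ2-7 clones 78.6 to 316 CPM with a median of 206. The medians of TRBJ2-4 were higher in both rounds and all ranges overlapped. The difference was 0.45 ± 0.15 (SE, 95% interval 0.13 to 0.76).

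Klrc1 encodes NKG2A, an inhibitory receptor that pairs with the product of Klrd1. In Round 1 its level was 287 to 748 CPM with a median of 503 in TRBJ2-4 clones, and 453, 579, 594, 692 and 779 CPM in TRBJ2-7 clones. In Round 2 it was 531 to 1249 CPM with a median of 921, and 490 to 2122 CPM with a median of 1083. The groups overlapped in both rounds. The islet difference was −0.44 ± 0.18 (SE, 95% interval −0.79 to −0.08) and that in the spleen, many of whose clones are the same, was −0.42 (adjusted p = 0.999 in edgeR's test). Klrd1 had a difference of −0.28 with an interval from −0.64 to 0.09.

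No gene of the effector and cytotoxic list passed. Of its 22 genes, 12 were high enough to be tested, of which 2 had the higher value in TRBJ2-4 and 10 in TRBJ2-7. Over all 1436 genes tested these counts were 713 and 723. The median difference of the list was −0.21, beside −0.0017 over all genes tested. The median was −0.0018 in Round 1 (9 genes) and −0.20 in Round 2 (15 genes). Klrc1, Ccl4 (−0.53), a chemokine of activated CD8 T cells, and Klrd1 had the lowest p of the list. Ccl5, a chemokine at 1443 to 31100 CPM in every clone, had a difference of 0.04 with an interval from −0.46 to 0.54.

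Gzmb encodes granzyme B, a serine protease of cytotoxic granules. It was singled out after its values were seen, as were Ccl5, Tox, Havcr2, Cxcr6, S100a6, Il10ra, Fli1, Tcf7 and Nr4a1. In Round 1, Gzmb stood at 0 to 2891 CPM with a median of 176 in TRBJ2-4 clones, and at 0, 0, 16.6, 129 and 133 CPM in TRBJ2-7 clones. In Round 2 it stood at 24.8 to 612 CPM with a median of 52.9 in TRBJ2-4 clones and at 4.66 to 1061 CPM with a median of 274 in TRBJ2-7 clones. The higher median was thus on the TRBJ2-4 side in Round 1 and on the TRBJ2-7 side in Round 2, with overlap in both. All 104 UMIs behind the 2891 CPM of clone 4 came from 1 of its 6 cells. The difference was −0.63 over both rounds (95% interval −2.02 to 0.76) and −1.69 in Round 2 (−2.87 to −0.50, edgeR adjusted p = 0.608). The round-by-J-gene term, Round 2 minus Round 1, was −4.80 (−8.13 to −1.47, unadjusted p = 0.00564, adjusted p = 0.652 in edgeR).

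Genes of coinhibition and exhaustion had 0 passed of 10 tested (17 listed), 4 with the higher value in TRBJ2-4 and 6 in TRBJ2-7, and a median of −0.11. Rbpj (−0.48), a DNA-binding partner of Notch, Pdcd1 (−0.35), which encodes PD-1, and Lag3 (−0.32), an inhibitory receptor for MHC class II, had the lowest p. Pdcd1 had a median of 560 CPM in TRBJ2-4 clones and 551 CPM in TRBJ2-7 clones of Round 1. In Round 2 its medians were 613 and 1022 CPM, and the Round 2 difference was −0.55 with an interval from −0.98 to −0.11 (edgeR adjusted p = 0.711). Tox, a transcription factor of chronically stimulated T cells, had a difference of 0.20 with an interval from −0.14 to 0.53.

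Havcr2, which encodes the coinhibitory receptor TIM-3, was too low for the test of both rounds and was tested in Round 2. There it stood at 12.4 to 141 CPM with a median of 29.8 in TRBJ2-4 clones and at 10.5 to 262 CPM with a median of 131 in TRBJ2-7 clones. The difference was −1.54 ± 0.38 (SE, 95% interval −2.32 to −0.76, unadjusted p = 0.000361, adjusted p = 0.244 in edgeR). In Round 1 it stood at 0 to 121 CPM with a median of 19.0 in TRBJ2-4 clones, and at 0, 0, 0, 37.3 and 57.0 CPM in TRBJ2-7 clones. The TRBJ2-7 clones of Round 2 were the only group with a median above 100 CPM, and they overlapped with the other 3 groups.

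Cxcr6, a chemokine receptor of tissue-resident T cells, and S100a6, a calcium-binding protein, differed in sign between rounds. In Round 1, Cxcr6 stood at 133 to 873 CPM with a median of 478 in TRBJ2-4 clones and at 0, 42.4, 128.5, 779 and 970 CPM in TRBJ2-7 clones. In Round 2 it stood at 49.6 to 801 CPM with a median of 444, and at 308 to 1269 CPM with a median of 930. The difference was 0.71 in Round 1 (95% interval −0.51 to 1.94) and −0.89 in Round 2 (−1.41 to −0.37, unadjusted p = 0.00158, adjusted p = 0.396 in edgeR). For S100a6 the medians were 1403 and 573 CPM in Round 1 and 938 and 1882 CPM in Round 2, and the differences were 0.37 and −0.84. All ranges of both genes overlapped between the J genes.

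Il10ra, a chain of the interleukin-10 receptor, and Fli1, a transcription factor of the ETS family, were tested in Round 2. Il10ra had medians of 58.5 CPM in TRBJ2-4 clones and 113 CPM in TRBJ2-7 clones, with a difference of −0.98 (95% interval −1.48 to −0.48). Fli1 stood at 60.1 to 118 CPM with a median of 90.2 in TRBJ2-4 clones and at 42.6 to 161 CPM with a median of 137 in TRBJ2-7 clones. Its difference was −0.71 (−1.05 to −0.37). For both genes edgeR's adjusted p was 0.244. Without clone 10 of TRBJ2-7, the difference of Fli1 was −0.76 with an adjusted p of 0.0435. In Round 1 the medians stood in the other order, at 79.7 and 58.0 CPM for Fli1 and 103 and 49.7 CPM for Il10ra.

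**Figure D4:**
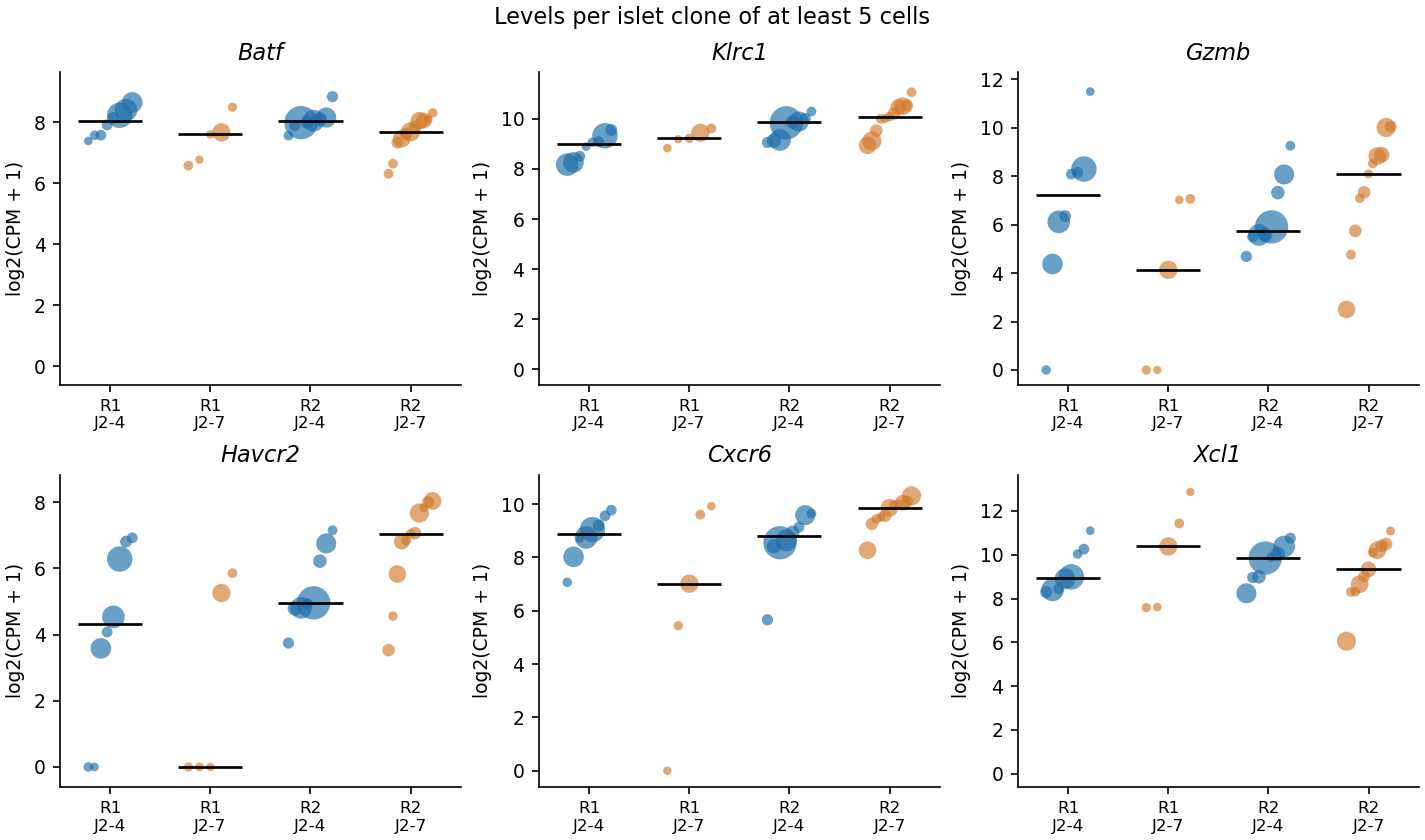
Each panel gives the level of 1 gene as log2(CPM + 1) in every islet clone of at least 5 cells, by round (R1, R2) and J gene, with point area growing with the number of cells and bars at the medians. The groups overlap in every panel. The bars of Batf and Klrc1, which were chosen for the same sign in both rounds, differ in the same direction in both. Those of Gzmb, Havcr2, Cxcr6 and Xcl1 differ in opposite directions, and Gzmb, Havcr2 and Cxcr6 were singled out after their values were seen.

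Genes of the progenitor and memory program had 0 passed of 7 tested (18 listed), with a median of −0.23, 3 higher in TRBJ2-4 and 4 in TRBJ2-7. The median was −0.29 in Round 1 (4 genes) and 0.12 in Round 2 (10 genes), which are unlike sets of genes. Of the 4 genes tested in both rounds, 2 had the same sign in both. Cd28, a costimulatory receptor, had a difference of 0.19, and Foxo1, a transcription factor of memory T cells, had −0.23. Xcl1, a chemokine for cross-presenting dendritic cells, stood at 314 to 2196 CPM with a median of 493 in TRBJ2-4 clones of Round 1, and at 191, 194, 1331, 2755 and 7460 CPM in TRBJ2-7 clones. In Round 2 the medians were 932 and 643 CPM. The difference was −1.79 in Round 1 (95% interval −3.16 to −0.42, edgeR adjusted p = 0.750) and 0.09 in Round 2 (−0.71 to 0.89). Tcf7, the transcription factor that defines progenitor-like cells, was low, with medians of 49.4 and 36.2 CPM in Round 1 and 83.0 and 64.3 CPM in Round 2, and its Round 2 difference was 0.19 (−0.49 to 0.87).

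The lists of TCR signalling held negative medians. They were smaller in size in Round 2 than in Round 1, but more genes were tested in Round 2, so the sets of genes differ. Over all 1436 genes tested, 713 had the higher value in TRBJ2-4 and 723 in TRBJ2-7. Of 17 tested genes (25 listed) that respond early to a TCR signal, 0 passed, 3 had the higher value in TRBJ2-4 and 14 in TRBJ2-7. The median was −0.13, and by round it was −0.21 (9 genes) and −0.07 (18 genes). Crem (−0.44), a cAMP-responsive transcription factor, Rel (−0.40), a subunit of NF-κB, and Rgs16 (−0.27), a regulator of G-protein signalling, had the lowest p. Nr4a1, which encodes Nur77, a nuclear receptor induced by TCR signals, had a difference of −0.04 with an interval up to 0.37. Of 18 tested genes (26 listed) of the proximal TCR machinery, 0 passed, 6 had the higher value in TRBJ2-4 and 12 in TRBJ2-7. The median was −0.08, and by round it was −0.09 (15 genes) and −0.02 (22 genes). Lcp2 (−0.33), which encodes the adaptor SLP-76, Cd3d (−0.15), a chain of the CD3 complex, and Zap70 (−0.20), the kinase that docks on it, had the lowest p. For Cd3d the interval was −0.30 to −0.003.

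Nr4a2, a nuclear receptor induced by TCR signals, and Fas, a death receptor, differed in sign between rounds. Nr4a2 stood at 250 to 663 CPM with a median of 486 in TRBJ2-4 clones of Round 1 and at 509, 532, 775, 1228 and 1376 CPM in TRBJ2-7 clones. In Round 2 its medians were 746 and 582 CPM, and the groups overlapped in both rounds. The differences were −0.78 and 0.39, and the round-by-J-gene term was 1.12 (unadjusted p = 0.00383, adjusted p = 0.552 in edgeR). For Fas the differences were −0.73 and 0.41, and that term was 1.09 (adjusted p = 0.552). These 2 genes were chosen after their values were seen.

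The other lists were small. Of 6 tested cell cycle genes (21 listed), 0 passed and 5 had the higher value in TRBJ2-4, with a median of 0.13, led by Pcna (0.33), the sliding clamp of DNA replication, and Hmgb2 (0.29), a chromatin protein of dividing cells. The 4 tested anergy genes (11 listed) had a median of −0.04, with Tnfrsf4 at −0.32 and Cblb, a ubiquitin ligase that restrains TCR signals, at −0.04. The 3 tested interferon response genes (18 listed) had a median of 0.14, with Irf1 at 0.37, and the 7 tested adhesion and homing genes (16 listed) had a median of −0.07, with Itgb1 at −0.42. By round, the median of the interferon list was 0.10 (2 genes) and −0.015 (8 genes), and that of the adhesion list was 0.22 (4 genes) and −0.16 (12 genes). Of those 4 lists, 0 genes passed.

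**Figure D5:**
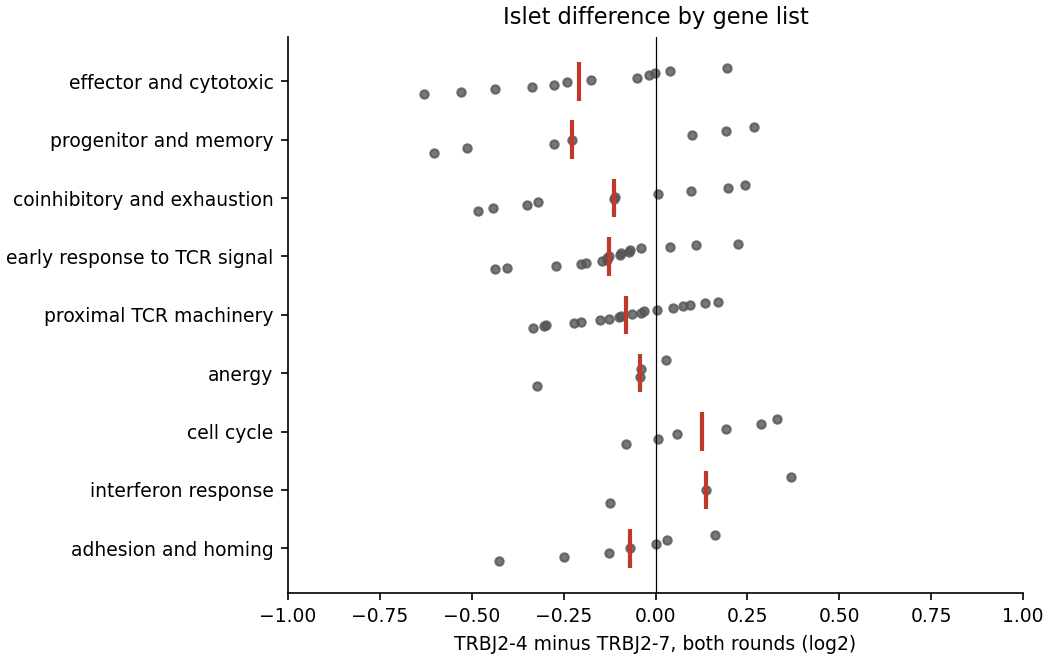
Each grey point is a tested gene of the list named on the left, placed by its islet difference of TRBJ2-4 minus TRBJ2-7 over both rounds on the log2 scale, and red bars are the medians. Every point lies between −0.63 and 0.37, and 0 genes passed the test.

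Clones that encoded the same receptor protein still differed from one another. Over 1440 genes, the median SD between clones on the log2(CPM + 50) scale was 0.27 for the 5 clones of the TRBJ2-4 receptor found in 8 clones that could be measured in Round 1. It was 0.30 for all 8 TRBJ2-4 clones and 0.46 for the 5 TRBJ2-7 clones of that round. In Round 2 it was 0.23 for 4 clones of that receptor, 0.26 for 8 TRBJ2-4 clones and 0.31 for 11 TRBJ2-7 clones. The small clones of Round 1 TRBJ2-7 had the fewest UMIs, and the part of depth in these SDs was not tested. For Gzmb, the 5 clones of that receptor in Round 1 spanned 0 to 2891 CPM with a median of 68.4 CPM. All UMIs behind the 2891 CPM came from 1 cell, so the top of that span is not a level shared by a clone's cells. The 4 clones in Round 2 spanned 46.7 to 612 CPM. For Batf the clones of Round 1 spanned 167 to 402 CPM and those of Round 2 188 to 285 CPM.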

How the data were processed

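The authors deposited raw UMI counts per gene and cell from 10x 5′ libraries, made with Cell Ranger on mm10 (version 6.0 in the methods, 5.0.1 in the headers of the count files), and Cell Ranger's contig annotations. As in the study, cells with 5% or more mitochondrial UMIs, or outside 200 to 3500 genes (spleen 2000), were left out. Doublets were not called with a tool, and exactly 1 α and 1 β contig were required. Counts were summed per clone of at least 5 cells and round, and tested with edgeR 4.0.16 (TMM, filterByExpr, quasi-likelihood, Benjamini-Hochberg over all genes) with the round as a term. Receptor segment genes were left out of gene counts by their symbols, and γ-chain V genes with symbols that begin with Tcrg-V were not caught. DESeq2 1.42.0 was an alternative. R 4.3.3, Python 3.11.15, scipy 1.17.1, limma 3.58.1, numpy 2.4.6, pandas 2.3.3 and matplotlib 3.10.9 were used. Rounds are shared pools of mice, and the Round 2 minus Round 1 deviations of both J genes correlated with r = 0.85 over 1440 genes, so the rounds pair the clones' groups. CDR3 matches were the longest runs shared with the germline V and J ends, and bases added by chance that match are counted as germline.

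The models were tested on simulated counts with 200 genes changed at once, and the shares recovered apply to that number only. In Round 1, 35% of genes changed by 0.5 log2 units and 74% of those changed by 1 were recovered, in Round 2 35% and 96%, and in the spleen 83% and 100%. Clones held 15468 to 930020 UMIs, and low genes were filtered out. The Clopper-Pearson intervals and the limit for a count of 0 (3 counts) cover counting error only. The members and lists were chosen with earlier results of these data known. Named genes were the 5 of lowest p per direction with the same sign in both rounds and, per list, the 3 of lowest p. The α-chain genes TRAV16N and TRAJ42 are taken as Cell Ranger named them. One gene that the rule picked is not reported here.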

Additional observations from a re-analysis of the deposited data

Results flagged for a closer look

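Among 51 groups of clones, 6 held a value that stood apart from the others by Dixon's 95% limit. Chance exceeds that limit in about 1 in 20 groups. The groups covered genes named above, clone size and islet share. Larger groups were not examined, among them the 11 tested TRBJ2-7 clones of Round 2. In Round 1 TRBJ2-4 clones, Gzmb reached 2891 CPM where the next clone had 314.5 CPM (clone 4, 6 cells), and Fli1 reached 278 CPM in the same clone where the next had 143 CPM. In Round 2 TRBJ2-4 clones, Gzmb reached 612 CPM where the next had 269 CPM (clone 14, 10 cells), and Batf reached 459 CPM where the next had 285 CPM (clone 9, 16 cells). In Round 1 TRBJ2-7 clones, S100a6 reached 4719 CPM where the next had 703 CPM, and Ptms reached 517 CPM where the next had 290 CPM, both in clone 14, which had 6 cells and 15468 UMIs. All 6 values came from clones of 16 cells or fewer.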

How the results depend on the processing

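The counts of 0 genes depended on the filter on low counts. Without it, 10 genes passed over both rounds, 16 in Round 1 and 12 in Round 2. Of these, 3 passed in both rounds, namely Batf3, Gzma and Gzmb, each with opposite signs. Several had few UMIs, and Prss2, Pnlip, Cpa1 and Clps are acinar genes. Others had many UMIs over all islet clones, such as Xcl1 (4943) and Ifi27l2a (10248) in Round 1 and S100a6 (9375) and Cxcr6 (3689) in Round 2. These genes were also tested with the filter, in the same round, and did not pass there. Tcrg-V7, which passed over both rounds, is a γ-chain V gene. With counts summed per library and J gene, 1 gene passed (Prss2). Without a term for the rounds that pair the groups (no replicate block), 0 genes passed in islets, with 95 at an unadjusted p under 0.05, and 0 in the spleen, with 59; the block changed no other call. Leaving out single clones gave 0 to 0 genes over both rounds and in Round 1 and 0 to 1 in Round 2, where Fli1 passed without TRBJ2-7 clone 10. Leaving out single clones moved the log2 difference in clone size between 0.0071 and 0.97 in Round 1 and between −0.095 and 0.54 in Round 2. It turned the sign of that in Round 2 without TRBJ2-4 clone 1. It moved the difference in islet share between −23.5 and −7.04 points in Round 1 and between −4.24 and 4.81 points in Round 2. Chosen after seeing the data, pooling clones of 1 receptor protein, leaving out shared barcodes and dropping edgeR's Poisson bound each gave 0 genes. Alternatives were scored for the 10 genes of lowest p, the reported genes among the first 2 of each list, and 6 genes in Round 2. Of these alternatives, 540 kept sign and side of the threshold and 6 passed it (Havcr2, Cxcr6, S100a6, Il10ra and Gzmb in Round 2 without the filter, and Fli1 as above). The sign turned in 5 of them. The other named genes were not scored. Between the fits of Round 1 and Round 2, Nr4a2, Fas, Tox and Ccl5 turned sign, and Ccl4, Lag3, Rgs16 and Zap70 did not. Leaving out either round moved Xcl1 between −1.79 and 0.090 and Pdcd1 between −0.55 and 0.037. Cblb was at 0.062 without the filter, 0.021 in clones of at least 10 cells and 0.021 without clones found in both rounds. The cause was not tested.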

Other observations

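Several TRBJ2-4 clones lay 1 base from a larger clone of the same library, over both CDR3 sequences together. In Round 1 there were 2 such clones with 15 cells, and in Round 2 there were 6 with 63 cells, sized 1 to 31 cells. All of these except clone 10 in Round 2 encoded the TRBJ2-4 receptor found in 8 clones. TRBJ2-7 had 0 in Round 1 and 1 in Round 2, with 22 cells. Whether any of them is a sequencing error of its neighbour was not tested.

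Outside the low-count filter, Penk, which encodes the precursor of enkephalin, was at 0, 0, 232, 1216 and 1883 CPM in the TRBJ2-7 clones of Round 1 and at 0 to 215 CPM with a median of 42.4 in the TRBJ2-4 clones. The gene was chosen after its values were seen. In Round 2 the medians were 63.0 CPM in TRBJ2-7 and 23.3 CPM in TRBJ2-4 clones, and the ranges overlapped in both rounds.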
